A study of Danio rerio with 18 samples.

Results

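Gene expression in the retina of zebrafish young mutants, whose smarca4 gene is mutated (now listed as smarca4a), was compared with that of wild type retina at 52 hours post fertilization (hpf). The comparison used 6 of the 18 arrays of the series, 3 of dissected mutant retina and 3 of dissected wild type retina, chosen by the labels alone. It covered all 15502 probe sets that are not controls, which stand for 8793 named genes. The other 12 arrays hold, for both genotypes, whole embryos and retinas dissected together with their retinal pigment epithelium (RPE).

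Smarca4, also called Brg1, is an ATPase of the SWI/SNF complex, which slides or evicts nucleosomes and so changes which stretches of DNA transcription factors can reach. The vertebrate retina is built from dividing progenitors that leave the cell cycle and become ganglion, amacrine, horizontal, bipolar and photoreceptor cells and Muller glia. In young mutants retinal cells are known to be specified but to fail in their final differentiation.

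Both groups were of the AB strain and aged 52 hpf, and neither carried any other allele or agent that the labels give. Each array held RNA from a separate pool of dissected tissue, labelled as a biological replicate. Every pool was made of 10 tissues except mutant replicate 2, which was made of 9. The labels do not name the allele or say which cells lose the protein. RNA was amplified by a labelling protocol of 2 cycles. In bulk tissue of this kind, fewer cells of a type and less RNA per cell cannot be told apart. Values are log2 signals as deposited, changes are log2 differences of mutant minus wild type ± SE (n = 3 arrays per group), and a gene was called at a limma adjusted p under 0.05. The SE and p come from a fit that shares its estimate of the spread over all 6 groups. Fold is the ratio of the higher to the lower group. No fold is given where the lower group lay under a log2 signal of 5.15, the 30th percentile of all group means. P-values measure only the spread between such pools.

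smarca4a itself was low on every mutant array. The brighter of its 2 probe sets read 11.29, 10.97 and 11.19 on the wild type arrays and 9.09, 8.69 and 8.89 on the mutant arrays. The dimmer probe set read 8.45, 8.09 and 8.39 in wild type and 6.91, 6.60 and 6.77 in mutant. Neither probe set overlapped between the genotypes, and the transcript was still well above the lowest signals of the array in the mutant. Array correlations within a group ran from 0.993 to 0.996 in mutant retina and from 0.994 to 0.995 in wild type retina, and the median SD of a probe set was 0.12 in both. Retinal regulators were bright in both groups: crx, a photoreceptor factor, averaged 11.95 in wild type and 12.14 in mutant, and neurod1 12.43 and 12.31. These 2 genes were chosen after their values were seen.

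Of 8793 genes, 888 (10.1%) were called higher and 835 (9.50%) lower in the mutant retina. Over probe sets the shares were 8.88% and 9.41%. A block for replicate number, fitted to the 12 arrays of embryos and dissected retinas, raised the counts to 1552 higher (17.7%) and 1385 lower (15.8%). Arrays of both genotypes did not overlap for 3045 genes (34.6%). The falls were larger than the rises. Among genes that changed by at least 2-fold, 246 were lower and 96 higher, and 57 genes differed by -2 or less against 7 by 2 or more. The median over all genes was 0.04, with 5% of genes below -0.63 and 5% above 0.57.

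Among genes with established symbols, the 3 largest falls were in calb2b, rlbp1a and syt1a. calb2b, which binds calcium in amacrine and ganglion cells, read 11.88, 11.87 and 11.83 in wild type and 7.53, 7.58 and 7.79 in mutant. rlbp1a, which carries retinaldehyde in Muller glia, read 9.61, 9.75 and 9.74 against 6.42, 6.74 and 6.56. syt1a, the calcium sensor of synaptic vesicle release, read 10.48, 10.39 and 10.40 against 7.14, 7.59 and 7.36. Every mutant array lay more than 2.8 log2 units under every wild type array for these 3 genes. The falls were 18.7-fold for calb2b, 8.74-fold for rlbp1a and 8.34-fold for syt1a.

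Further genes among the 15 largest falls had the same tight replicates. irx4a, a homeobox factor, read 10.49, 10.25 and 10.34 in wild type and 7.57, 7.54 and 7.50 in mutant, a fall of 7.09-fold. slc32a1, which loads GABA and glycine into vesicles, read 9.44, 9.80 and 9.57 against 6.91, 6.99 and 6.91, a fall of 6.34-fold. junba, a subunit of the AP-1 transcription factor, read 9.89, 9.74 and 9.61 against 7.08, 7.08 and 7.04, a fall of 6.41-fold. In each case the groups were separated by more than 2.4 log2 units. Others of this set were the 14-3-3 gene ywhag2 (-2.75 ± 0.15), the Cdk5 activator cdk5r2a (-2.64 ± 0.10), the neuronal intermediate filament gene inab (-2.61 ± 0.16), the tetraspanin cd82a (-2.66 ± 0.18) and the minus-end kinesin kifc3 (-2.57 ± 0.13). The guanine nucleotide exchange factor arhgef4 (-2.65 ± 0.18) and the adaptor samsn1a (-2.68 ± 0.15) fell by similar amounts. lrrc4.1 and lingo1b, leucine-rich repeat proteins of neurons, went from wild type means of 7.16 and 6.86 to mutant means of 4.28 and 4.29, under the background limit, so no fold is given. All 15 had adjusted p of 7.1e-09 or less.

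**Figure D1:**
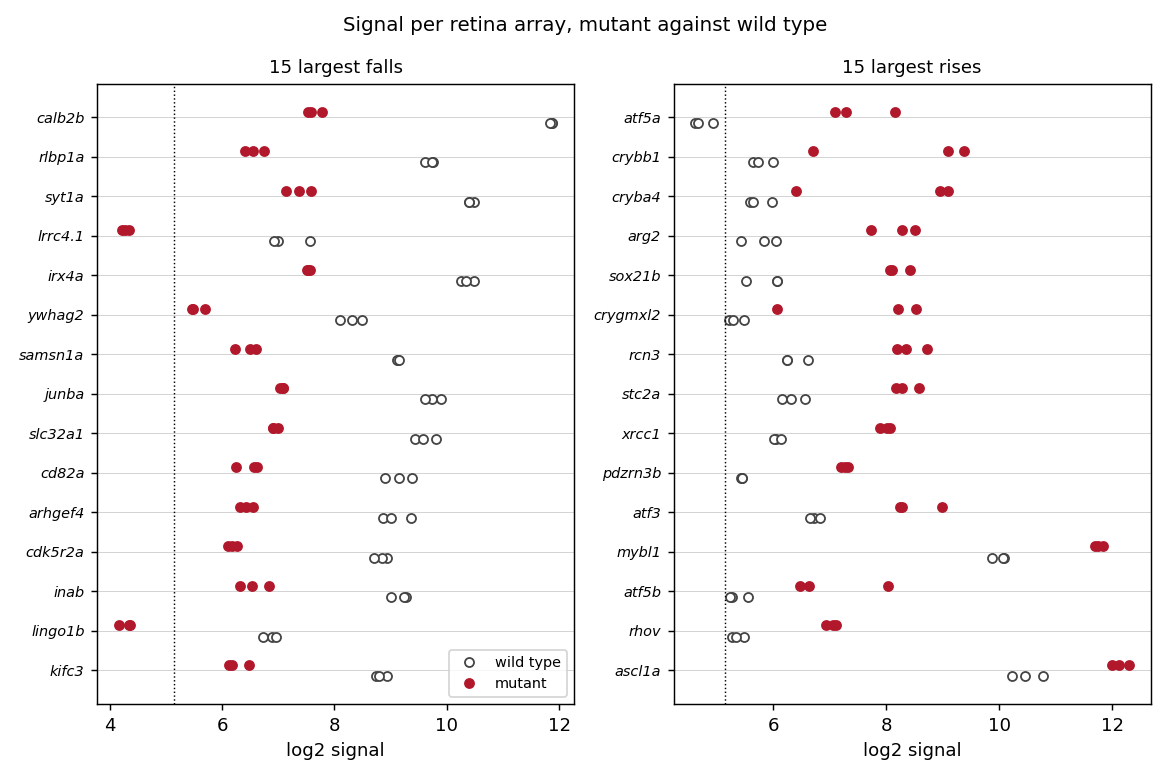
Log2 signal on each of the 6 retina arrays for the 15 largest called falls (left) and the 15 largest called rises (right) among genes whose arrays did not overlap; open circles are wild type and filled circles mutant arrays, and the dotted line marks a signal of 5.15. Replicates sit close together for the falls, while mutant arrays of crybb1, cryba4 and crygmxl2 spread over more than 2 log2 units.

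Genes of the synapse and the neuronal skeleton fell as groups. Of 21 genes of the vesicle release machinery, 17 fell and 1 rose, with a median of -0.77 against 0.04 over all genes. They included cplx2a, which clamps vesicle fusion, at -2.49 ± 0.15, the vesicle proteins sypa (-1.79 ± 0.16) and syt11a (-1.43 ± 0.12), and the small GTPase rab3c (-1.60 ± 0.14). Of 26 genes of the neuronal cytoskeleton and neuronal RNA-binding proteins, 20 fell and 0 rose (median -0.87). stmn2a, a microtubule regulator, read 9.71, 9.55 and 9.47 in wild type and 7.50, 7.39 and 7.35 in mutant. gap43, found in growing axons, read 9.77, 9.60 and 9.78 against 7.83, 7.60 and 7.57. The mutant arrays of both genes lay at least 1.78 below the wild type arrays. The tau gene maptb fell by 1.92 ± 0.11 and the pan-neuronal RNA-binding protein gene elavl3 by 1.75 ± 0.16. With the replicate block, 1 gene of this list was higher.

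Several genes of transmitter use fell. Of 15 genes that make or carry transmitters, 7 fell and 0 rose (2 with the replicate block), with a median of -0.02, and 9 had a wild type signal over 5.15. slc18a3a, which loads acetylcholine into vesicles, read 8.0, 8.14 and 7.87 in wild type and 5.70, 6.0 and 5.74 in mutant, with no overlap. The GABA-making enzymes gad1b and gad2 fell 2.99-fold and 2.69-fold (-1.58 ± 0.13 and -1.43 ± 0.12). Of 29 transmitter receptors, 6 fell and 1 rose (median 0.04). The NMDA receptor subunit grin1a fell by 1.63 ± 0.13, the kainate receptor subunit grik1a by 1.31 ± 0.16 and the nicotinic subunit chrnb3a by 1.36 ± 0.13. Of 17 voltage-gated channels, 9 had a wild type signal over 5.15, and 5 fell while 0 rose. The 5 were 2 without mutant replicate 3 and 3 without mutant replicate 1 or wild type replicate 2. The shares that fell were 46.7% of the transmitter genes, 20.7% of the receptors and 29.4% of the channels. Over all genes 9.50% were called lower and 10.1% higher. With only 2 called, the share of channels lay nearer to that of all genes. kcnh2a, a potassium channel, fell by 1.11 ± 0.10 and the sodium channel scn8aa by 1.03 ± 0.17.

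Adhesion and guidance genes were more mixed. Of 54 axon guidance and adhesion genes, 15 fell and 2 rose (4 with the replicate block), and their median was -0.01. Their shares were 27.8% lower and 3.7% higher, against 9.50% and 10.1% of all genes. cntn1b, an axonal adhesion protein, read 8.54, 8.29 and 8.24 in wild type and 5.98, 5.94 and 6.32 in mutant. The Slit receptor robo2 fell 2.72-fold, the adhesion protein alcama by 1.51 ± 0.13 and the presynaptic adhesion protein nrxn1a by 1.70 ± 0.16. Of 19 cadherins and protocadherins, 9 fell and 1 rose (median -0.28), led by cdh18a (-1.64 ± 0.11), pcdh10a (-1.90 ± 0.15) and pcdh19 (-1.12 ± 0.11). Of 30 calcium-binding proteins, 6 fell (20%) and 2 rose (6.67%), with a median of -0.07. Among those that fell, besides calb2b, were calb2a (-2.28 ± 0.13) and pvalb6 (-1.83 ± 0.13), while ncalda, a neuronal calcium sensor, rose by 1.48 ± 0.21.

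**Figure D2:**
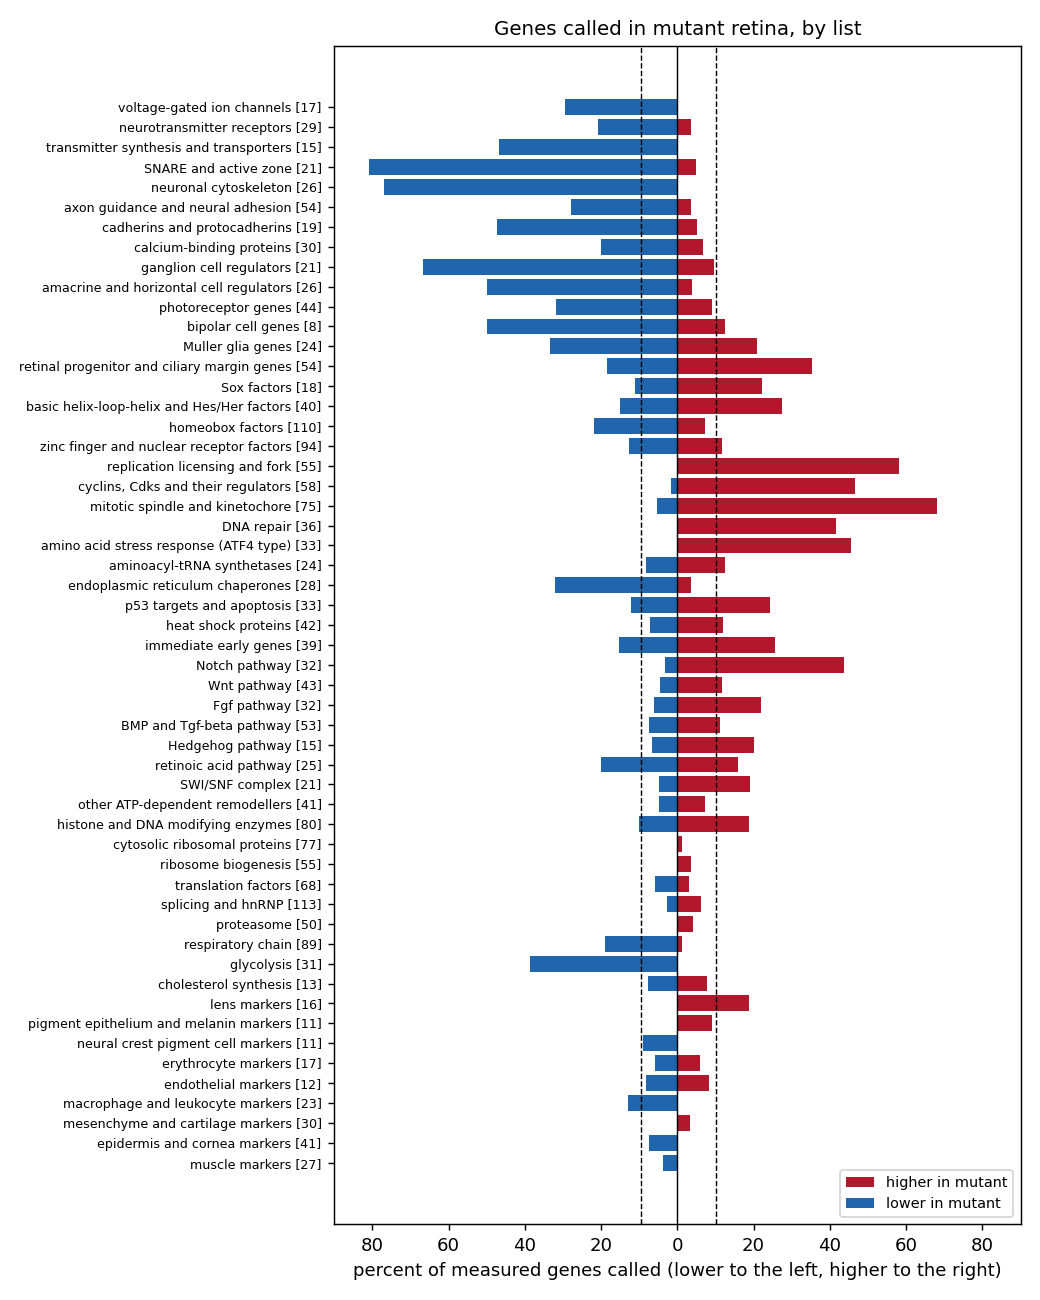
Percentage of the measured genes of each list that were called higher (right) or lower (left) in mutant retina, with the number of genes in brackets; dashed lines mark 10.1% and 9.50%, the shares over all genes. Neuronal lists extend left of the line and cell cycle lists right of it, while ribosomal proteins, proteasome and translation factors stay within it on both sides.

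Regulators of inner retinal cell classes fell too. Their 2 lists share some genes. Like all lists here, they were drawn up with earlier results of these data known, so their counts are descriptions only. Of 21 regulators of ganglion cells, 14 fell and 2 rose (median -0.77). Iroquois homeobox genes stood among them: irx5a (-1.95 ± 0.15), irx1a (-1.47 ± 0.12) and irx4b (-1.63 ± 0.14) fell beside irx4a. isl2a, a LIM homeobox factor of ganglion cells, read 9.14, 9.48 and 9.29 in wild type and 7.71, 8.09 and 7.92 in mutant. In both genotypes replicate 1 was the lowest, and the groups stayed apart. sox11b, which neural precursors express, rose by 1.30 ± 0.12. Of 26 regulators of amacrine and horizontal cells, 13 fell and 1 rose (2 with the replicate block; median -0.47). meis2a, an amacrine homeobox factor, read 9.47, 9.47 and 9.28 against 7.02, 7.20 and 6.82, a fall of 5.25-fold. The AP-2 factor genes tfap2a, tfap2b and tfap2c fell 2.37-fold, 3.60-fold and 5.15-fold. foxn4, which acts earlier, in progenitors that will make amacrine and horizontal cells, was the one that rose, by 1.24 ± 0.13. Its arrays read 8.68, 8.69 and 8.81 in wild type and 9.93, 9.97 and 9.99 in mutant.

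Of the 44 photoreceptor genes, 14 fell (31.8%), 4 rose (9.09%) and 26 were not called (median -0.07). Of all genes 9.50% were called lower and 10.1% higher, so the share that rose was near that of all genes. rcvrn2, a calcium sensor, read 10.31, 10.17 and 10.12 in wild type and 7.81, 7.83 and 8.16 in mutant. pde6ha, a phosphodiesterase subunit, read 8.78, 8.19 and 8.85 against 6.76, 7.15 and 6.88. The transducin subunits gngt1 (-1.40 ± 0.11), gngt2b (-1.35 ± 0.21) and gnat1 (-0.64 ± 0.13) and the ultraviolet opsin opn1sw1 (-0.88 ± 0.17) were also lower. Another transducin subunit, gngt2a, rose by 0.95 ± 0.19. The 4 regulators of photoreceptor fate described here were not called lower. Of these, crx and neurod1 were chosen after their values were seen. The list holds further regulators that are not described, so the 4 do not stand for all of them. otx2b, which acts at the start of that fate, read 12.13, 11.69 and 11.90 in wild type and 12.67, 12.26 and 12.61 in mutant, a rise of 1.53-fold (adjusted p = 0.0016). nr2e3, a nuclear receptor of photoreceptors, rose by 0.55 ± 0.11 (adjusted p = 0.0010). crx differed by 0.19 ± 0.15 (adjusted p = 0.51) and neurod1 by -0.12 ± 0.12 (adjusted p = 0.65), and the arrays of both overlapped. The 14 that fell were 9 without mutant replicate 1 or without wild type replicate 1 or 3. In the list, 30 genes had a wild type signal over 5.15.

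**Figure D3:**
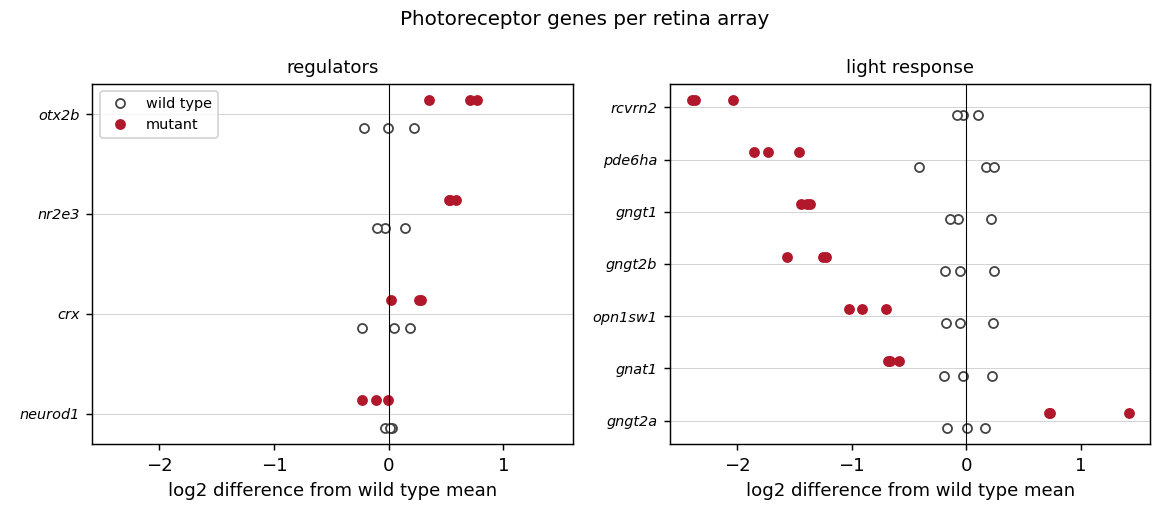
Log2 difference of each retina array from the wild type retina mean for photoreceptor regulators (left) and genes of the light response (right); open circles are wild type and filled circles mutant arrays. Mutant arrays of rcvrn2 lie more than 2 log2 units below the wild type mean, and those of crx and neurod1 mix with the wild type arrays.

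Glial genes were mixed, and bipolar genes fell in part. Of 24 Muller glia genes, 8 fell (33.3%) and 5 rose (20.8%), with a median of -0.04. The shares over all genes were 9.50% lower and 10.1% higher. Beside rlbp1a, slc1a2b, a glutamate transporter, read 11.38, 11.32 and 11.20 in wild type and 9.83, 9.85 and 9.66 in mutant, and crabp1a, a retinoic acid binding protein, fell 5.72-fold. Among those that rose was hes6 (1.43 ± 0.19), which progenitors also express. Of 8 bipolar cell genes, 4 fell and 1, otx2b, rose (2 with the replicate block). pcp4a, a calmodulin-binding protein, fell by 1.23 ± 0.11.

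Progenitor and proneural genes moved in both directions, with more rises. Of 54 genes of progenitors and the ciliary margin, where the fish retina keeps its stem cells, 19 rose and 10 fell (median 0.15). ascl1a, a proneural factor, read 10.23, 10.45 and 10.78 in wild type and 11.99, 12.29 and 12.13 in mutant. neurog1, another proneural factor, read 7.0, 6.72 and 7.42 against 8.34, 8.51 and 9.22. nr2e1, a nuclear receptor of neural progenitors, rose by 1.13 ± 0.12, and nr2f1a, a nuclear receptor of another subfamily, fell by 1.38 ± 0.12. Of 32 Notch pathway genes, 14 rose and 1 fell (2 with the replicate block; median 0.33). The ligand genes dla and dlc rose 2.3-fold and 2.49-fold. The feedback inhibitor nrarpa rose by 0.83 ± 0.13, while the effector hey1 fell by 1.24 ± 0.12.

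Among 18 Sox factors 4 rose and 2 fell (22.2% and 11.1%). The shares over all genes were 10.1% and 9.50%, and 17.7% and 15.8% with the replicate block. sox21b read 6.06, 6.07 and 5.52 in wild type and 8.42, 8.10 and 8.07 in mutant, a rise of 4.96-fold, and sox3, of the progenitor-expressed SoxB1 group, rose 2.09-fold. Fgf pathway genes rose in part, 7 of 32 with 2 lower (4 higher without mutant replicate 2): the ETS factor gene etv5b, a transcriptional readout of Fgf signalling, rose 3.05-fold, the ligand fgf8a 2.17-fold and the feedback inhibitor spry2 by 0.82 ± 0.14. In the retinoic acid pathway 4 of 25 rose and 5 fell (7 and 7 with the replicate block, and 2 higher without mutant replicate 3). cyp26b1, which degrades retinoic acid, rose by 1.12 ± 0.18, and aldh1a2, which makes it, fell by 0.99 ± 0.16.

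Some close relatives within a family were called in opposite directions. Inhibitors of DNA binding, the Id proteins, block proneural factors: id1 (0.72 ± 0.14) and id3 (1.02 ± 0.24) rose, while id2a (-1.37 ± 0.11) and id4 (-1.87 ± 0.14) fell. id4 read 10.36, 10.57 and 10.49 in wild type and 8.60, 8.59 and 8.60 in mutant, whereas id1 read 10.61, 10.61 and 10.90 against 11.25, 11.38 and 11.65. Retinoic acid binding proteins divided likewise, with crabp1a at -2.52 ± 0.15 and crabp2a at 1.26 ± 0.13, and so did the cone transducin subunits gngt2b at -1.35 ± 0.21 and gngt2a at 0.95 ± 0.19. eef1a1a, a translation elongation factor gene, read 7.69, 7.26 and 7.60 against 5.75, 5.76 and 5.94. eef1a1l1, a bright gene of the same family, read 14.18, 14.07 and 14.11 against 14.20, 14.13 and 14.16. As eef1a1l1 was not called, this pair was not called in opposite directions. Other families moved as one, as calb2a and calb2b or atf5a and atf5b did. eef1a1l1 and the pairing of relatives were chosen after the values were seen, and cross-hybridization between relatives was not tested.

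**Figure D4:**
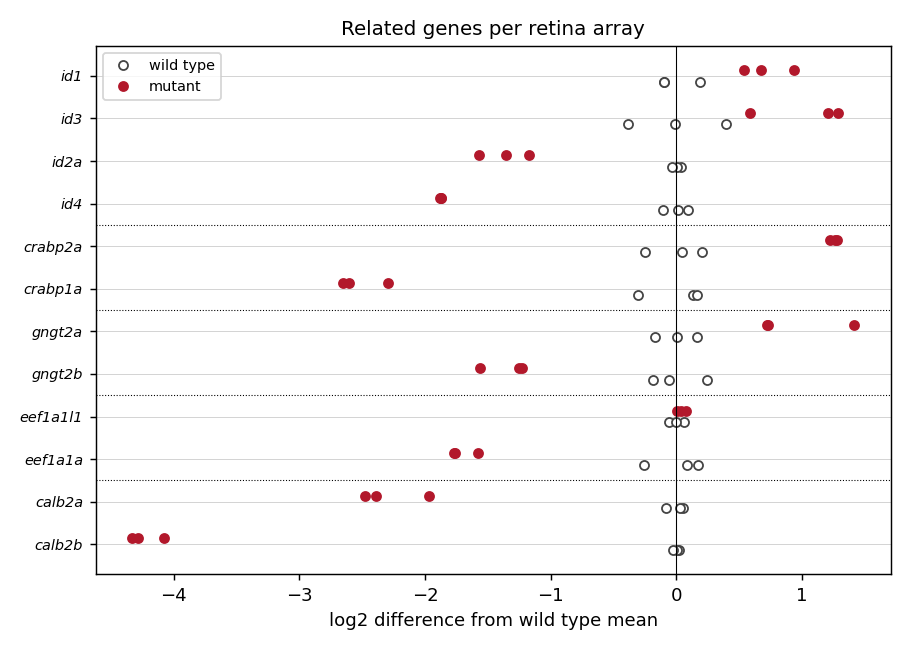
Log2 difference of each retina array from the wild type retina mean for related genes placed side by side; open circles are wild type and filled circles mutant arrays. id1, id3, crabp2a and gngt2a lie above 0 in mutant and id2a, id4, crabp1a and gngt2b below it.

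Genes of the dividing cell rose by small amounts. Of 75 genes of the mitotic spindle and kinetochore and some of their kinesin relatives, 51 rose and 4 fell, with a median of 0.52. The lowest value of the list was -1.09, and the kinesin kifc3, described above among the largest falls, is not in it. stil, needed to build centrioles, read 7.27, 7.45 and 7.43 in wild type and 8.52, 8.51 and 8.58 in mutant. The polo-like kinase gene plk3 rose 2.95-fold, the condensin subunit ncapg by 0.76 ± 0.10 and the mitotic kinesin kif14 by 0.72 ± 0.10. plk3 stands also in the list of p53 targets and apoptosis genes. kif5aa, a transport motor of axons and not of the spindle, was among the 4 that fell (-1.09 ± 0.10), which were 2 without mutant replicate 2 or 3 or wild type replicate 1 or 3. Of 55 genes of replication licensing and the fork, 32 rose and 0 fell (median 0.44), among them wdhd1 (0.74 ± 0.10), the clamp loader subunit rfc5 (0.79 ± 0.12) and the helicase component cdc45 (0.83 ± 0.12). Others of the fork were not called, such as the sliding clamp pcna, at 0.19 ± 0.09 (adjusted p = 0.17), which was chosen after its values were seen.

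The cell cycle genes that rose included both drivers and brakes. Of 58 cyclins, Cdks and their regulators, 27 rose and 1 fell (2 with the replicate block; median 0.36). The drivers included ccnd1, the G1 cyclin of progenitors, at 11.61, 11.58 and 11.37 in wild type and 12.66, 12.73 and 12.36 in mutant, and also mycn (1.02 ± 0.14), cdk2 (0.87 ± 0.11) and foxm1 (0.93 ± 0.11). mybl1, a Myb factor, rose 3.35-fold. Some genes that slow division also rose. cdkn1ca, a Cdk inhibitor, read 8.87, 8.94 and 9.30 against 10.27, 10.27 and 10.56. btg3, an antiproliferative gene, rose by 0.94 ± 0.11. ccnd1 and cdkn1ca were chosen after their values were seen, and the drivers and brakes of the list were not counted apart. Of 36 DNA repair genes, 15 rose and 0 fell (1 with the replicate block; median 0.29). xrcc1, a scaffold of single-strand break repair, read 6.05, 6.02 and 6.13 in wild type and 8.02, 7.89 and 8.08 in mutant, a rise of 3.80-fold, while the checkpoint kinase chek1 rose 1.60-fold.

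Of 33 genes of an amino acid stress response of the ATF4 type, 15 rose and 0 fell (median 0.34). The activity of ATF4 itself was not tested. atf3, a stress-induced factor, read 6.72, 6.66 and 6.83 in wild type and 8.25, 8.99 and 8.27 in mutant. atf5b read 5.28, 5.56 and 5.24 against 6.48, 8.03 and 6.63. stc2a, a secreted stanniocalcin, read 6.16, 6.57 and 6.32 against 8.18, 8.58 and 8.28. Mutant replicate 2, the pool of 9, was the highest array for all 3, and also for atf5a (7.29, 8.16 and 7.09 in mutant, with a wild type mean of 4.75) and for chac1, a glutathione-degrading enzyme (10.92, 11.52 and 11.26). Without that array atf5b rose by 1.19 ± 0.25 and atf5a by 2.44 ± 0.31. asns, which makes asparagine, rose 1.73-fold. Aminoacyl-tRNA synthetase genes, listed apart, showed no such rise as a group. Of 24, 3 rose and 2 fell (7 and 5 with the replicate block; median 0.06). Without the block their shares of 12.5% and 8.33% lay near the 10.1% and 9.50% of all genes. With the block they passed the 17.7% higher and 15.8% lower of all genes, in both directions. The rises in amino acid stress genes came with falls in genes of protein folding in the endoplasmic reticulum: of 28, 9 fell and 1 rose (3 with the replicate block; median -0.18). The chaperone hspa5 read 10.55, 10.61 and 10.72 in wild type and 9.84, 9.51 and 10.08 in mutant. canx fell by 0.54 ± 0.10 and xbp1, a factor of the unfolded protein response, by 0.59 ± 0.14.

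Other stress and signal-induced genes were mixed. Of 33 p53 targets and apoptosis genes, 8 rose (24.2%) and 4 fell (12.1%), against 10.1% and 9.50% of all genes (median 0.12). The 8 were 5 without mutant replicate 3 or wild type replicate 1 or 2. The largest rise of the list, 1.56, was that of plk3, which was also counted with the spindle genes. rps27l rose by 0.99 ± 0.14 and btg2 by 0.84 ± 0.15, but tp53inp1 (-1.53 ± 0.13) and phlda3 (-1.16 ± 0.13), further p53 targets, fell. Of 39 immediate early genes, 10 rose and 6 fell. Members of AP-1 opposed each other: jun, read at 6.48, 6.36 and 6.72 in wild type and 7.32, 7.58 and 7.74 in mutant, rose, while junba and fosl2 (-1.44 ± 0.09) fell. nr4a2b, an orphan nuclear receptor, fell by 1.98 ± 0.14 and ier5l rose by 1.57 ± 0.11.

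Energy metabolism fell in part. For comparison, 9.50% of all genes were called lower, and 15.8% with the replicate block. Of 31 glycolysis genes, 12 fell and 0 rose (1 with the replicate block; median -0.20). hk1, a hexokinase, read 10.21, 10.10 and 10.16 in wild type and 9.02, 8.72 and 8.70 in mutant. pfkpa, a phosphofructokinase, fell 2.22-fold and gapdhs, a glyceraldehyde phosphate dehydrogenase, 2.07-fold. Of 89 genes of the respiratory chain, 17 fell and 1 rose (median -0.27), and 50 fell with the replicate block. The 17 were 5 without mutant replicate 2, 6 without wild type replicate 3, 9 without mutant replicate 1 and 10 without wild type replicate 2. Among the larger falls were cox6b1, a cytochrome oxidase subunit, at 8.05, 7.84 and 8.16 against 6.64, 6.87 and 7.11, and ndufa4b, whose mutant mean of 4.45 was under 5.15.

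Housekeeping machinery was nearly flat in the fit without the replicate block. With the block, 17.7% of all genes were called higher and 15.8% lower. Splicing and ribosome biogenesis genes called higher and proteasome genes called lower passed those shares. Of 55 ribosome biogenesis genes, 2 rose and 0 fell (11 and 3 with the replicate block). Of 77 ribosomal protein genes, 1 rose and 0 fell (2 and 0 with the replicate block; median 0.01), and the one that rose was rps27l, a p53-responsive relative of a ribosomal protein. Of 50 proteasome genes 2 rose and 0 fell (4 and 11 with the replicate block, and 3 lower without wild type replicate 1). One of the 2 was psmc3ip, a recombination factor and not a proteasome subunit (1.18 ± 0.17). Of 68 translation factors 2 rose and 4 fell (7 and 7 with the replicate block, and 2 lower without wild type replicate 1). Of 113 splicing and RNA-binding genes, 7 rose and 3 fell (29 and 6 with the replicate block, and 4 higher without mutant replicate 1 or wild type replicate 1 or 3). The 3 that fell were the splicing regulators rbfox1, rbfox2 (-1.03 ± 0.26) and celf4 (-0.87 ± 0.13). rbfox1 read 8.83, 8.54 and 8.84 in wild type and 6.46, 6.60 and 6.64 in mutant. ptbp1b, whose mammalian counterpart represses neuronal exons in progenitors, rose by 0.53 ± 0.14.

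Of 21 genes of the SWI/SNF list, 4 rose and 1, smarca4a, fell (9 and 2 with the replicate block; median 0.16). Over all genes the shares called higher and lower were 10.1% and 9.50%, and 17.7% and 15.8% with the block. The 4 were 2 without mutant replicate 3 or wild type replicate 2 or 3. bicra, a subunit of the ncBAF form, read 8.88, 9.03 and 8.93 in wild type and 9.74, 9.58 and 9.58 in mutant, and arid2, of the PBAF form, rose 1.61-fold. Of 80 histone and DNA modifying enzymes, 15 rose and 8 fell (33 and 11 with the replicate block). Those counts were 8 and 4 without mutant replicate 1, and the 8 lower genes were 4 to 5 without mutant replicate 2 or wild type replicate 1 or 2. dnmt1, the maintenance DNA methyltransferase, rose by 0.68 ± 0.12, the Polycomb gene bmi1a by 0.60 ± 0.10, and the histone demethylase gene kdm6ba fell by 0.69 ± 0.11.

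Of the 15 largest rises, 4 stood in none of the lists. arg2, a mitochondrial arginase, read 5.43, 6.04 and 5.85 in wild type and 8.28, 8.52 and 7.74 in mutant. rcn3, a calcium-binding protein of the secretory pathway, read 6.61, 6.25 and 6.24 against 8.71, 8.20 and 8.35. pdzrn3b, a ubiquitin ligase, read 5.44, 5.45 and 5.45 against 7.21, 7.32 and 7.27. rhov, a small GTPase, rose 3.17-fold.

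Some genes of neighbouring tissues differed widely between pools. Among lens genes, 3 crystallins rose, and they were the only genes with an SD above 1 in either retina group. crybb1 read 5.65, 5.72 and 6.0 in wild type and 9.09, 9.38 and 6.71 in mutant. cryba4 read 5.98, 5.60 and 5.64 against 9.10, 8.95 and 6.41, and crygmxl2 read 5.21, 5.28 and 5.48 against 8.22, 8.53 and 6.07. Mutant replicates 1 and 2 were high for all of them and replicate 3 lay closer to wild type. Without mutant replicate 3 the rises were 3.44 ± 0.42 for crybb1, 3.29 ± 0.21 for cryba4 and 3.05 ± 0.15 for crygmxl2, in place of 2.60 ± 0.53, 2.41 ± 0.44 and 2.28 ± 0.37. Of 16 lens genes 3 rose (5 with the replicate block), and the mean signal of the list ran from 5.07 to 5.18 in wild type and from 5.29, in replicate 3, to 5.94 in mutant. Globins differed by pool as well: hbbe3 read 7.02, 8.20 and 6.90 in mutant against 6.74, 6.48 and 6.72, so that mutant replicate 2 was again the highest. hbae3 read 10.84, 12.09 and 10.80 in mutant and 11.20, 11.40 and 11.53 in wild type, with the same replicate highest and no call (adjusted p = 0.80). The hbbe3 rise of 0.73 ± 0.23 (adjusted p = 0.030) was 0.31 ± 0.15 (adjusted p = 0.20) without mutant replicate 2, and it was also not called without any 1 of the wild type arrays. In the pigment epithelium list 1 of 11 rose (9.09%, and 4 genes with the replicate block). The shares over all genes were 10.1% higher and 9.50% lower, and 17.7% and 15.8% with the block. The 1 that rose was rpe65a, the isomerase of the visual cycle. It read 7.29, 7.12 and 7.81 in mutant and 6.28, 6.42 and 6.62 in wild type. Of 23 macrophage and leukocyte genes 0 rose and 3 fell, of which cxcr4b (-1.92 ± 0.19) is a chemokine receptor that retinal neurons also use. Of 41 epidermis and cornea genes 0 rose and 3 fell (1 and 3 with the replicate block), and of 27 muscle genes 0 rose and 1 fell (1 and 2). The largest fall among the epidermis and cornea genes, -2.36, was that of tfap2c, listed also with the amacrine and horizontal cell regulators. The part of carried-over tissue in the rises was not tested.

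**Figure D5:**
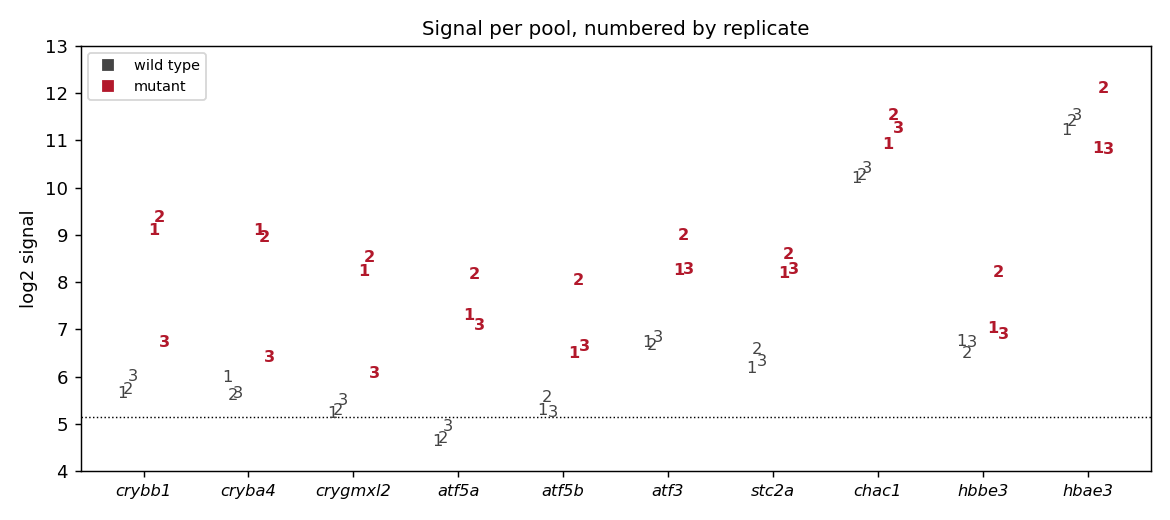
Log2 signal on each of the 6 retina arrays for 3 lens crystallins, 5 genes of the amino acid stress response and 2 globins; numbers mark the replicate and the dotted line a signal of 5.15. Crystallins are low in mutant replicate 3, while stress genes and globins are highest in mutant replicate 2.

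The genotype effect in retina was set against that in whole embryos of the same age, which hold many tissues besides the retina and share no array with it. The difference of the 2 effects was called for 635 of 8793 genes (7.22%), 246 with the retinal difference above the embryonic one and 389 (4.42%) below it. With the replicate block over the 12 arrays of both tissues these were 655 (7.45%) and 746 (8.48%). A more negative effect in retina was called for 11 of 21 ganglion cell regulators (16 with the block), 11 of 26 neuronal cytoskeleton genes (18), 9 of 21 vesicle release genes (12) and 9 of 26 regulators of amacrine and horizontal cells (12). It was also called for 6 of 19 cadherins and protocadherins (10 with the block) and 4 of 15 genes that make or carry transmitters (6). Among calcium-binding proteins it was called for 6 of 30 (6). The remaining neuronal lists held smaller shares. These were 6 of 54 axon guidance and adhesion genes (14 with the block), 4 of 29 transmitter receptors (6) and 1 of 17 voltage-gated channels (3). A more positive effect in retina was called for 14 of 75 spindle and kinetochore genes (46 with the block) and 7 of 55 replication genes (22). The other cell cycle lists held fewer, 3 of 58 cyclins, Cdks and their regulators (17) and 0 of 36 DNA repair genes (11). The share of all genes above 0 was 2.80%, and 7.45% with the block. calb2b changed by -4.23 in retina and -1.31 in embryo (difference -2.91 ± 0.20, adjusted p = 5.5e-08) and junba by -2.68 and 0.27 (difference -2.95 ± 0.29, adjusted p = 1.3e-06). cd82a was lower in retina with -0.01 in embryo, and eef1a1a fell in retina with -0.11 in embryo.

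Rises with a called difference included sox21b (2.31 in retina and 0.03 in embryo), arg2 (2.41 and -0.10), rcn3 (2.05 and 0.05) and etv5b (1.61 and 0.28). Other changes had near equal values in both. smarca4a differed by -2.26 in retina and -2.43 in embryo, mybl1 by 1.75 and 1.72, ier5l by 1.57 and 1.62, hes6 by 1.43 and 1.28 and xrcc1 by 1.92 and 1.69. None of these 5 had a called difference, which does not show the effects to be equal. The effect in dissected retina minus that in retina with the RPE attached was called for 1922 genes (21.9%), 821 above 0 and 1101 below. Examples were picked from the genes named above. pdzrn3b differed by 1.82 in retina and 0.34 with RPE (difference 1.48 ± 0.16, adjusted p = 1.2e-05). stc2a differed by 2.00 and 0.49, and crybb1 by 2.60 and -0.16. The mutant RPE-attached arrays had brighter hybridization controls (11.15 against 9.46 to 9.78 in the other groups) and pools of 6. Their median SD was larger (0.17 against 0.11 to 0.12 in the other groups). Their array correlations were lower (0.987 to 0.988 against 0.993 to 0.996). The part of these features in those differences was not tested.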

How the data were processed

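RNA of 18 pools was measured on Affymetrix zebrafish arrays, in 6 groups of 3. The authors deposited log2 values, which the submitters' processing notes credit to RMA, affy and R 2.2.0. No affy version was stated, and the raw scans were not used. Of 15617 rows, 115 controls were left out and 15502 tested. Of these, 10795 had 1 gene symbol, 135 several and 4572 none. Symbols came from the platform annotation, updated through GRCz12tu for 1 probe set and kept for 84 outside that table. For a gene with several probe sets, the one brightest on average over the arrays was used.

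Groups came from the labels. limma 3.58.1 (R 4.3.3) fitted a mean for each group over 18 arrays, with Benjamini-Hochberg adjustment over 15502 probe sets. The script was tested on simulated data. Figures used Python 3.11.15 and matplotlib 3.10.9. The number of arrays limits the precision. Differences between retina and embryo effects were tested as contrasts of the same fit.

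The labels do not say that replicate numbers pair samples. Mutant and wild type retina arrays of the same number deviated together across probe sets (r = 0.37, 0.50 and 0.34, as a description). For different numbers r ran from -0.40 to 0.09. Deviations were taken from each group mean, which ties these values to those of the same number, so they are no independent contrast. Results of the replicate block are given where they move a count by over 1.5 times. No scan date or array batch was used.

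Members and lists were chosen with earlier results of these data known. Genes named were smarca4a, for each direction the 15 called genes that changed most among established symbols whose arrays did not overlap, and from each list up to 6 called members by p. The exceptions were chosen after their values were seen: crx, neurod1, pcna, eef1a1l1, hbae3, ccnd1, cdkn1ca, elavl3, foxn4, gnat1, id3, jun, neurog1 and opn1sw1. Lists overlap in some genes. Alternatives were 2 stricter thresholds, a filter on dim probe sets, 1 probe set per gene, renewed quantile normalization, subtraction of array medians, trended or robust moderation, array weights, fits without the RPE-attached arrays or on the 6 retina arrays alone, the replicate block, and leaving out each array.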

Additional observations from a re-analysis of the deposited data

Results flagged for a closer look

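For 101 of the 150 genes named above, the genotype effect differed between retina and whole embryo by the test of the difference itself (limma, adjusted p under 0.05 over all probe sets, n = 3 arrays in each of 4 groups). Values are log2 differences of the retinal effect minus the embryonic one, and 71 were below 0 and 30 above. The named genes were mostly chosen for large changes in retina, so their number says nothing about the retina as a whole, and no explanation was weighed.

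Below 0, for genes of neurons, their synapses and their skeleton, the values were alcama -1.31, arhgef4 -1.97, calb2a -2.16, calb2b -2.91, cdh18a -1.11, cdk5r2a -2.0, chrnb3a -1.20, cntn1b -2.21, cplx2a -2.18, elavl3 -1.45, gad1b -1.19, gap43 -1.17, grik1a -1.18, grin1a -1.14, inab -2.15, kcnh2a -1.01, kif5aa -0.94, kifc3 -1.60, lingo1b -1.01, lrrc4.1 -1.47, maptb -1.19, nrxn1a -0.99, pcdh10a -1.64, pcdh19 -1.23, pcp4a -1.48, pvalb6 -1.45, rab3c -1.24, rbfox1 -1.23, robo2 -1.05, slc18a3a -1.94, slc32a1 -1.84, stmn2a -1.92, sypa -1.58, syt11a -1.03, syt1a -2.15 and ywhag2 -2.16. For regulators of retinal cell classes and of other transcription they were fosl2 -1.74, hey1 -1.21, id2a -1.31, id4 -1.71, irx1a -1.24, irx4a -1.80, irx4b -1.53, irx5a -1.72, isl2a -0.97, junba -2.95, kdm6ba -0.64, meis2a -2.06, nr2f1a -1.23, nr4a2b -1.49, tfap2a -0.83, tfap2b -1.46 and tfap2c -2.04. Among genes of photoreceptors and glia they were crabp1a -0.77, gnat1 -0.63, gngt1 -0.88, gngt2b -1.40, pde6ha -1.59, rcvrn2 -1.25, rlbp1a -2.0 and slc1a2b -0.97. In metabolism, signalling and other functions they were aldh1a2 -1.13, cd82a -2.65, cox6b1 -0.91, cxcr4b -1.77, eef1a1a -1.59, hk1 -0.71, ndufa4b -1.24, phlda3 -1.01, samsn1a -2.51 and tp53inp1 -1.07.

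Above 0, genes of progenitors and of Fgf and Notch signals had dla 0.73, dlc 0.76, etv5b 1.33, fgf8a 0.74, foxn4 1.04, nr2e1 0.71, sox21b 2.29, sox3 0.68 and spry2 0.79. Genes of the dividing cell had cdc45 0.66, cdk2 0.57, foxm1 0.60, kif14 0.64, ncapg 0.51, plk3 0.98, psmc3ip 0.82, rfc5 0.66, stil 0.61 and wdhd1 0.53. Stress response genes had atf3 0.82, atf5a 2.02, chac1 0.97 and stc2a 1.12, and lens crystallins cryba4 2.56, crybb1 2.83 and crygmxl2 2.59. The others were arg2 2.51, pdzrn3b 1.66, rcn3 2.0 and rhov 1.53. The crystallin values rest on mutant retina replicates 1 and 2.

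Against retina with the RPE attached, the genotype effect in dissected retina was higher by 1.48 for pdzrn3b, 1.5 for stc2a and 2.76 for crybb1 (adjusted p = 1.2e-05, 1.8e-04 and 0.014). Only a chosen few of the named genes were examined for this difference, so these need not be all that differ. Of all 1922 genes with a called difference, 821 had the higher effect in dissected retina and 1101 the lower.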

How the results depend on the processing

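Counts are of probe sets, in the order higher and lower in mutant retina and then, for the retinal minus the embryonic effect, above and below 0; as reported they were 1376, 1458, 374 and 693. They were 478, 723, 82 and 296 at 0.001, and 158, 449, 113 and 365 with at least 2-fold. Testing 1 probe set per gene gave 902, 852, 254 and 397. The replicate block over the 12 embryo and retina arrays gave 2490, 2317, 1003 and 1311, and over the 6 retina arrays alone it gave 2306 higher and 2180 lower. Leaving out 1 array in turn gave 1078 to 1188 higher and 1209 to 1280 lower, and 290 to 347 above and 572 to 664 below 0. The other settings stayed within 1.5-fold of the counts reported, and no scaling moved the share of higher calls by over 10 percentage points.

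No gene named above changed direction in a called fit. Of the called genes named above, hbbe3 lost its call with array weights, without the RPE-attached arrays, on the 6 retina arrays alone and without mutant replicate 2 or any wild type retina array. The others stayed called in each of the 18 settings that tested them. pcna was called with array weights (0.22), and hbae3 was called lower without mutant replicate 2 (-0.56). The replicate block ended none of these calls. List counts of 1 or 2 genes often moved by 1 or 2 when an array was left out, and the cause was not tested. With 3 pools a group, small differences are limited by the spread between pools. RMA values near 5.15 may be compressed, so changes of dim genes may be understated, which was not tested.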

Other observations

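Of 4707 probe sets without a single gene symbol, 385 were higher and 520 lower in mutant retina, so a share of the changes has no gene name here.

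Genes beside smarca4a on its chromosome were set against the rest. Among the 20 nearest measured genes on each side, 4 were higher and 1 lower in mutant retina and 35 were not called, which is 12.5% called against 19.6% of all genes. Their order was taken from assembly GRCz12tu, and no distance in bases was used.

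The spread between pools differed little between the genotypes. Over all genes the median SD was 0.12 in each, and 43 genes in wild type and 48 in mutant had an SD above 0.5. An SD above 1 was found for 3 genes in mutant and 0 in wild type.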
